A study of Mus musculus with 10 samples.

Results

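Agt, Fgfr3, Gja1, Aqp4 and Gfap are genes used as markers of astrocytes, and their levels were examined in the forebrain of newborn mice that lack Elavl3 and Elavl4 and of wild-type mice. They were taken from a list of 10 astrocyte genes. A gene entered where a probe set carried its symbol and no other in the platform annotation, and 5 of the 10 did, each through 1 probe set, among 13534 genes named in this way. A probe set with the symbol Slc1a2 carried a second symbol and was not used. Aldh1l1, S100b, Aldoc and Slc1a3 had no probe set of their own in that annotation and were not analysed here. The genes were selected on an earlier look at the differences between the genotypes in the same arrays, in which astrocyte genes stood lower in the double knockout. Those differences are therefore given below as a description, and nothing is supported with them.

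The samples were 5 double knockout pups (genotype Elavl3-/-;Elavl4-/-) and 5 wild-type pups, taken on postnatal day 0, all on a mixed C57BL/6 and CD-1 background. Total RNA of the dissected forebrain of each pup was hybridised to 1 exon array. Elavl3 and Elavl4 encode RNA-binding proteins made in neurons, so the mutation lies in genes of another cell type than the one described here. The labels describe neither the alleles nor which pups shared a litter, although the animals are said to be littermate pairs. In forebrain tissue, fewer cells of a type and less RNA per cell cannot be told apart.

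Astrocytes arise late in forebrain development, from radial glia that have earlier produced neurons, and much of their maturation follows birth. Mature astrocytes take up glutamate and potassium, couple to each other through gap junctions and wrap blood vessels with endfeet rich in water channels. Of the genes described here, Agt encodes angiotensinogen, a secreted protein that renin cuts to start the angiotensin series. Fgfr3 encodes a receptor tyrosine kinase for fibroblast growth factors, found in neural progenitors and astrocytes. Gja1 encodes a connexin, the main gap junction protein of astrocytes, Aqp4 the water channel of the endfeet, and Gfap the intermediate filament protein of astrocytes. Gja1 and Gfap are also expressed by other cells, Gja1 by meningeal cells among them.

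The stretches upstream of 3 of these genes are shown because they differ in the short motifs they hold. Of the 5 genes, 4 were looked up among RefSeq promoter sequences of build GRCm38.p6, which run from 250 bases before to 50 bases after a gene's start, and these gave 5 windows, since Fgfr3 has 2 starts. Capitals mark a match to the STAT motif TTCNNNGAA or to the TATA box TATAAA, read on either strand.
Agt, chr8:124569657-124569956, minus strand: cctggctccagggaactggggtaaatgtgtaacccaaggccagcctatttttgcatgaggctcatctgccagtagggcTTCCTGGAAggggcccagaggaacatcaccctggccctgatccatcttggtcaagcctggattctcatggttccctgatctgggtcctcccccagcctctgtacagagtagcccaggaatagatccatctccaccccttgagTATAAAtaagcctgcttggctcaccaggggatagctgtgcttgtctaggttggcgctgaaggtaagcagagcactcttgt
Gfap, chr11:102897151-102897450, minus strand: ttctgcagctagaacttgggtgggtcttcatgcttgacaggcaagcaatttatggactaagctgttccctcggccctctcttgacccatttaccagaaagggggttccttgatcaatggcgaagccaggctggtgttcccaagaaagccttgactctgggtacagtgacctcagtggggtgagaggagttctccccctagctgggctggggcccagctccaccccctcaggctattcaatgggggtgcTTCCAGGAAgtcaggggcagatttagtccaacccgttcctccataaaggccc
Fgfr3, chr5:33721474-33721773, plus strand: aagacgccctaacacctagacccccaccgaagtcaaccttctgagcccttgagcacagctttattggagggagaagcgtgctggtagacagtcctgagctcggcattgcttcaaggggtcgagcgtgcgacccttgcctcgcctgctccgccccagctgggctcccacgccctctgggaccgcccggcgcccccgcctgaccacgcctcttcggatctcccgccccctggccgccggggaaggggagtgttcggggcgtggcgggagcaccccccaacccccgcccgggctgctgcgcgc

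STAT factors act downstream of cytokine receptors and take part in the onset of astrocyte gene expression. The STAT motif was present in 2 of the 5 windows, those of Agt and Gfap, and in 8.3% of all 32851 promoter windows of the same length. Counted from the annotated start, with -1 the base before it, the first base of the STAT match lies at -172 in Agt and at -2 in Gfap. The TATA box of Agt begins at -30. The TATA box was held by 1 of the 5 windows and by 13.6% of all windows. The site of NFI factors, which also act in astrocyte differentiation, was searched on both strands as the full palindromic NFI site and as the shorter TTGGCA, which the full site need not contain. Neither was found in the 5 windows, against 0.0365% of all windows for the full site and 14.1% for the shorter form. The Fgfr3 window shown holds no match to any of the motifs and has a GC content of 69.7%, against 54.7% for Agt and 55.7% for Gfap. A match in letters is a description of the sequence only.

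Deposited values were log2 values, and array medians lay between 5.05 and 5.24. Wild-type replicate 4 stood apart from the other arrays. It correlated with them at 0.933 to 0.946 over 65529 probe sets, and its weight in limma's array weighting was 0.381, against 0.779 to 1.44 for the others. The differences of the 5 genes are therefore given with and without it, as are the medians of the gene lists. The targeted genes followed the labels: Elavl3 lay between 5.53 and 6.94 in double knockout arrays, against 10.52 to 11.39 in wild-type arrays, and Elavl4 between 5.88 and 6.49, against 7.42 to 7.69. Detection calls were not used here, so whether a low value stands above background is not known, and levels of different genes are not compared.

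All 5 astrocyte genes had a lower mean in the double knockout over the 10 arrays, but that of Gfap turned just above 0 without wild-type replicate 1, 2 or 3. Differences ran from -0.25 log2 for Agt to -0.04 for Gfap, with a median of -0.16, against a median of -0.03 over all 15419 single-symbol probe sets. A difference below 0 was also found for 59.0% of those probe sets, so the shared sign alone says little. None of the 5 passed limma's test at an adjusted p of 0.05 over all probe sets. Calls in that fit were rare over all probe sets too, at 0.00763% in either direction (5 of 65529), of which 2 were single-symbol probe sets. The 5 included probe sets of the targeted genes Elavl3 and Elavl4 (limma's adjusted p 3.15e-05 and 0.013). At an unadjusted p under 0.05 the count was again 0 of 5, against 2.76% of single-symbol probe sets. In a fit of single-symbol probe sets alone, 0 of 5 passed the adjusted threshold and 3 of 5 had an unadjusted p under 0.05, against 0.0195% and 5.8% of the probe sets in it. Since this contrast was used to choose the genes, nothing is read from these counts.

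Without wild-type replicate 4 the differences lay closer together, from -0.29 for Agt to -0.15 for Gfap, with a median of -0.18 against -0.02 over all single-symbol probe sets. The array had the lowest wild-type value for 4 of the 5 genes, Fgfr3 being the exception. With it left out, the differences of all 5 were below 0, and 60.0% of single-symbol probe sets were. Again 0 of 5 passed the adjusted threshold, against 0.00153% of all probe sets, and 1 of 5, Agt, had an unadjusted p under 0.05, against 2.3% of single-symbol probe sets.

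**Figure D1:**
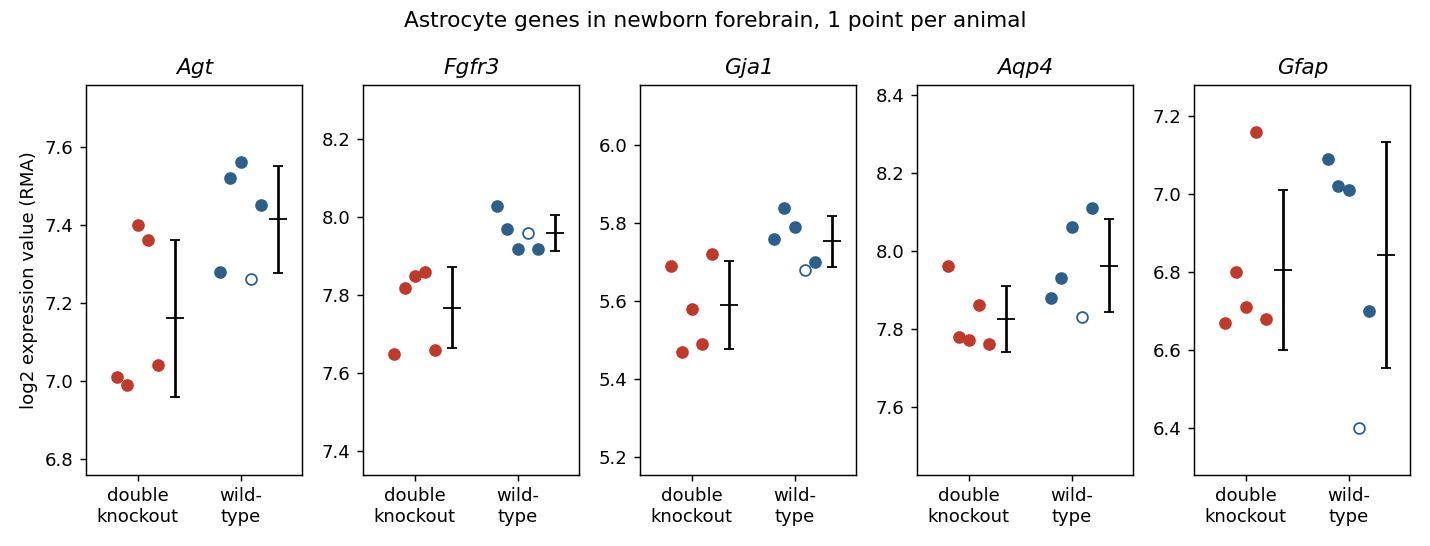
Log2 expression values (RMA) of Agt, Fgfr3, Gja1, Aqp4 and Gfap on the vertical axis, by animal, with 5 double knockout animals in red and 5 wild-type animals in blue. Each panel spans the same range of 1 log2 unit. The bar beside each group is the mean ± SD, the open circle is wild-type replicate 4, and only for Fgfr3 do all double knockout animals (7.65 to 7.86) lie below all wild-type animals (7.92 to 8.03).

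Agt, the secreted precursor of the angiotensins, had the greatest difference of the 5. Its log2 values were 7.01, 6.99, 7.40, 7.36 and 7.04 in double knockout replicates 1 to 5, against 7.28, 7.52, 7.56, 7.26 and 7.45 in wild-type replicates 1 to 5. Double knockout replicates 1, 2 and 5 lay below every wild-type animal, while replicates 3 and 4 lay inside the wild-type range, so the groups overlapped. The mean was 7.16 ± 0.20 in double knockout and 7.41 ± 0.14 in wild-type forebrain (SD, n = 5 each). The difference was -0.25 log2 (SE 0.124, 95% interval -0.53 to 0.02), or 83.9% of the wild-type level. Without wild-type replicate 4 it was -0.29 (95% interval -0.57 to -0.01), or 81.6%, and over the omission of each array in turn it lay between -0.31 and -0.21.

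Fgfr3, the growth factor receptor, was the member with groups that did not overlap. Double knockout replicates 1 to 5 were at 7.65, 7.82, 7.85, 7.86 and 7.66, against 8.03, 7.97, 7.92, 7.96 and 7.92 in wild-type replicates 1 to 5. Every double knockout value was below every wild-type value, and the gap between the nearest animals was 0.06 log2. Among single-symbol probe sets, 0.687% (106 of 15419) had groups that did not overlap with the double knockout lower, and 0.259% with it higher. Fgfr3 averaged 7.77 ± 0.10 in double knockout and 7.96 ± 0.05 in wild-type forebrain (SD, n = 5 each). The genotypes differed by -0.19 log2 (SE 0.0927, 95% interval -0.40 to 0.01), or 87.5% of the wild-type level.

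Wild-type replicate 4 had an Fgfr3 value of 7.96, at the median of its group. Without that array the difference stayed at -0.19 (95% interval -0.40 to 0.02) and the groups still did not overlap, as for 1.19% of single-symbol probe sets on the lower side. The range over single omissions was -0.21 to -0.16. Fgfr3 varied little within groups: its residual SD of 0.0804 was above that of only 7.2% of single-symbol probe sets, whose median was 0.164. The 5 wild-type animals spanned 0.11 log2 and the 5 double knockout animals 0.21.

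Gja1, the gap junction connexin, was at 5.69, 5.47, 5.58, 5.49 and 5.72 in double knockout replicates 1 to 5. The corresponding wild-type values were 5.76, 5.84, 5.79, 5.68 and 5.70. Double knockout replicates 2, 3 and 4 lay below all wild-type animals, and replicates 1 and 5 lay within the wild-type range. Gja1 averaged 5.59 ± 0.11 in double knockout and 5.75 ± 0.07 in wild-type animals (SD, n = 5 each), and the genotypes differed by -0.16 (SE 0.0959, 95% interval -0.37 to 0.05). Without wild-type replicate 4 the difference was -0.18 (95% interval -0.40 to 0.03), and 4 of 5 double knockout animals lay below the remaining wild-type animals.

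Aqp4, the endfoot water channel, was at 7.96, 7.78, 7.77, 7.86 and 7.76 in double knockout replicates 1 to 5, against 7.88, 7.93, 8.06, 7.83 and 8.11 in wild-type replicates 1 to 5. The groups overlapped through double knockout replicates 1 and 4, and replicates 2, 3 and 5 lay below every wild-type animal. Aqp4 averaged 7.83 ± 0.08 in double knockout and 7.96 ± 0.12 in wild-type animals (SD, n = 5 each), and the genotypes differed by -0.14 (SE 0.0991, 95% interval -0.35 to 0.08). It was -0.17 without wild-type replicate 4 (95% interval -0.39 to 0.05).

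Gfap, the intermediate filament protein, showed the smallest difference and the widest spread. Double knockout replicates 1 to 5 had 6.67, 6.80, 6.71, 7.16 and 6.68, against 7.09, 7.02, 7.01, 6.40 and 6.70 in wild-type replicates 1 to 5. Wild-type replicate 4 was the lowest of all 10 animals and double knockout replicate 4 the highest, so the groups overlapped widely. Gfap averaged 6.80 ± 0.21 in double knockout and 6.84 ± 0.29 in wild-type animals (SD, n = 5 each), and the genotypes differed by -0.04 (SE 0.158, 95% interval -0.39 to 0.31).

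For Gfap, wild-type replicates 4 and 5, at 6.40 and 6.70, both lay below wild-type replicates 1 to 3, at 7.01 to 7.09. The Gfap difference moved with single arrays. Without wild-type replicate 4 it was -0.15 (95% interval -0.45 to 0.15), and without wild-type replicate 1 it was 0.02. The residual SD of Gfap, 0.251, was above that of 78.5% of single-symbol probe sets. The sign of its difference is therefore not read as a direction.

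**Figure D2:**
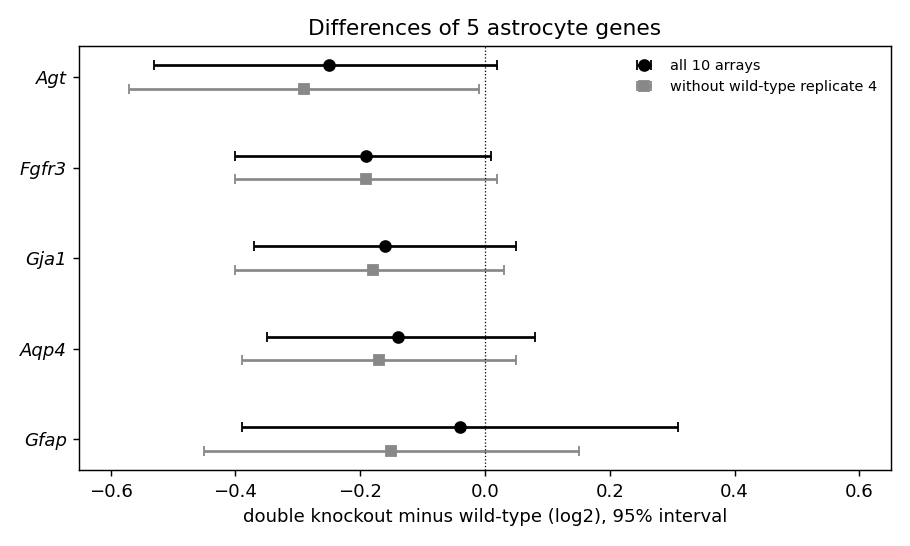
Difference of double knockout minus wild-type on the log2 scale for each gene, with limma's 95% interval, from all 10 arrays (black circles) and without wild-type replicate 4 (grey squares). All points lie below 0, that of Gfap turning above it when wild-type replicate 1, 2 or 3 is left out, and of the 10 intervals only that of Agt without wild-type replicate 4 (-0.57 to -0.01) leaves out 0.

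The low values of different genes fell in different double knockout animals. Replicates 1 and 5 were the lowest of the double knockout animals for Fgfr3, at 7.65 and 7.66, and both were also low for Agt, at 7.01 and 7.04. The same 2 animals had the highest double knockout values of Gja1, at 5.69 and 5.72. Replicate 1 also had the highest double knockout value of Aqp4, 7.96, whereas replicate 5 had the lowest, 7.76. Replicate 2 had the lowest value of all 10 arrays for Agt and Gja1.

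Averaged over the 5 genes, deviations from each gene's mean over the 10 arrays were -0.11, -0.14, -0.05, 0.04 and -0.14 log2 in double knockout replicates 1 to 5. In wild-type replicates 1 to 5 they were 0.10, 0.15, 0.16, -0.08 and 0.07. Double knockout replicate 4, with the high Gfap value, and wild-type replicate 4, with the low one, were the animals on the side of the other group.

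**Figure D3:**
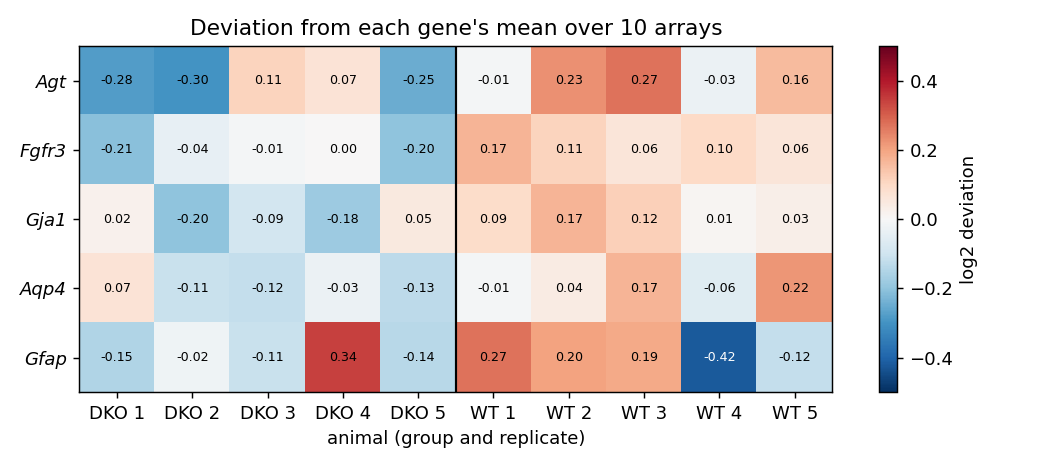
Deviation of each gene (rows) from its own mean over 10 arrays, in log2 units, for double knockout (DKO) animals left of the line and wild-type (WT) animals right of it. Blue is below and red above the mean, and the widest deviations are those of Gfap, at -0.42 in wild-type replicate 4 and 0.34 in double knockout replicate 4.

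Whether the genes varied together from animal to animal was examined after the group mean was taken from each value, which removes the contrast used to choose the genes. All 10 pairs of genes were compared over the 10 animals, with an exact permutation test within groups (two-sided, 14400 arrangements) and Benjamini-Hochberg adjustment over the 10 pairs. No pair passed. The strongest correlation was negative, between Fgfr3 and Gja1, with r = -0.67 and rho = -0.63 (exact permutation p = 0.124 and 0.165, adjusted 0.495 and 0.665). It was 0.21 without the 2 animals farthest from the median for Fgfr3, double knockout replicates 1 and 5, and so rests on them, and was -0.71 without wild-type replicate 4.

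The pair of Fgfr3 and Gfap had r = 0.45 and rho = 0.63 (exact permutation p = 0.155 and 0.0296, adjusted 0.495 and 0.296), with r = 0.62 without wild-type replicate 4 and 0.37 without the 2 farthest animals. Agt and Gfap had r = 0.45 and rho = 0.42 (exact permutation p = 0.198 and 0.235, adjusted 0.495 and 0.665), and r = 0.31 without wild-type replicate 4. Agt and Fgfr3, the pair with the greatest differences between genotypes, had r = 0.40 and rho = 0.37 (exact permutation p = 0.336 and 0.385, adjusted 0.672 and 0.665), and r = 0.43 without wild-type replicate 4 but -0.43 without the 2 animals farthest from the median for Agt.

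The genes most like the 5 in their animal-to-animal pattern were sought among 12915 other single-symbol probe sets. Probe sets named as predicted genes, Rik clones, olfactory receptors, microRNAs or small nucleolar RNAs had been left out. The measure was Pearson's r with the mean group-centred profile, over 10 arrays and with no test. Highest were Atg10, an enzyme of autophagosome formation (0.98), Ttc23 (0.94), Riok3, a protein kinase (0.93), Crbn, a substrate receptor of a ubiquitin ligase (0.93), Acp1, a phosphatase (0.93), and Capsl (0.92). Lowest were Akr1d1, a steroid reductase (-0.97), Npw, a neuropeptide precursor (-0.96), and Ly6g2 (-0.95). Without wild-type replicate 4, 1 of the first 6, Atg10, was again among the first 6, at 0.96. The 5 genes themselves had r of 0.81 (Agt), 0.30 (Fgfr3), 0.15 (Gja1), 0.45 (Aqp4) and 0.82 (Gfap) with the mean profile they form, so that profile mainly follows Agt and Gfap. These values were 0.84 (Agt), 0.44 (Fgfr3), -0.15 (Gja1), 0.14 (Aqp4) and 0.68 (Gfap) without wild-type replicate 4.

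A wider list of 40 astrocyte genes was described beside the 5, and 23 of them were measured. Of the 23, 19 had a difference below 0, with a median of -0.09 log2, and 0 passed limma's adjusted threshold in either direction. Over all single-symbol probe sets, 59.0% were below 0, and 60.0% without wild-type replicate 4. Counts below 0 in this and the following lists stand beside those shares and were not tested. At an unadjusted p under 0.05 there was 1 of 23, Gpr37l1, a receptor of glial cells, against 2.76% of single-symbol probe sets. There were 2 without wild-type replicate 4, Gpr37l1 and Gjb2, against 2.3%. It was at 6.85, 6.43, 6.33, 6.43 and 6.66 in double knockout replicates 1 to 5, against 6.86, 6.78, 6.84, 6.91 and 7.01 in wild-type replicates 1 to 5. Only double knockout replicate 1 reached into the wild-type range, and the difference was -0.34 (95% interval -0.60 to -0.08), and -0.33 without wild-type replicate 4.

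Gjb2, another connexin, came next in that list. It had 8.24, 8.16, 8.02, 8.21 and 8.29 in double knockout replicates 1 to 5, against 8.52, 8.63, 8.81, 8.08 and 8.34 in wild-type replicates 1 to 5. Wild-type replicate 4 was the only wild-type animal among the double knockout values. The difference was -0.29 (95% interval -0.60 to 0.01) and -0.39 without that array. Gjb6, the connexin beside it in astrocyte junctions, was at -0.14 and -0.28 without it. Glul, the glutamine synthetase of astrocytes, was at -0.05, Kcnj10, their potassium channel, at -0.03, and the cell adhesion protein Hepacam at 0.02. The median of the list without wild-type replicate 4 was -0.11, again with 19 of 23 below 0.

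**Figure D4:**
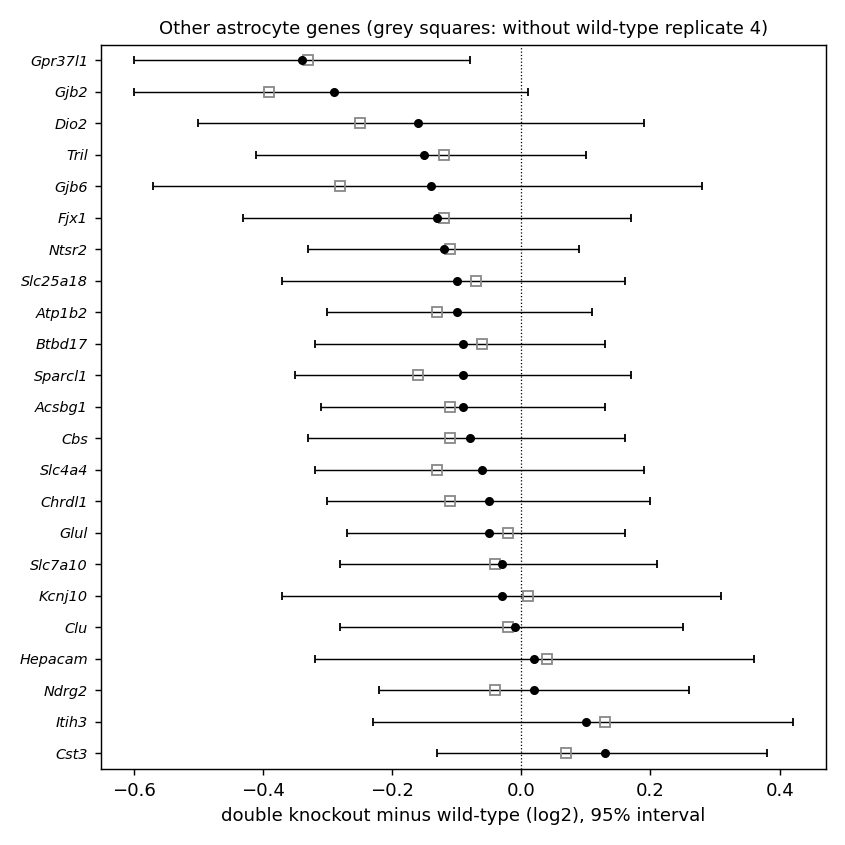
Differences of double knockout minus wild-type (log2) for the 23 measured genes of the wider astrocyte list, with limma's 95% interval from all 10 arrays (black) and the difference without wild-type replicate 4 (grey squares). Black points run from -0.34 for Gpr37l1 to 0.13 for Cst3, the lowest grey square is Gjb2 at -0.39, and of the intervals, drawn for all 10 arrays, only that of Gpr37l1 (-0.60 to -0.08) leaves out 0.

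Genes that work with the individual members were described next, and 0 of them passed the adjusted threshold. Of 12 genes of the renin and angiotensin system, 4 were measured, with a median of -0.01, and -0.03 without wild-type replicate 4. They included Agtr1a, a receptor of angiotensin II, at -0.02 (95% interval -0.27 to 0.23), and Mme, a peptidase that cuts angiotensins, at -0.06. Of 28 genes of fibroblast growth factor signalling, which acts through Fgfr3 among other receptors, 15 were measured, 13 of them below 0, with a median of -0.09 (and -0.08 without wild-type replicate 4). Etv4, a transcription factor induced by this signal, was at 7.22 in double knockout and 7.43 in wild-type forebrain (difference -0.21, 95% interval -0.46 to 0.04, and -0.21 without wild-type replicate 4). The ligand Fgf1 was at -0.14, the receptor Fgfr4 at -0.14, and the feedback inhibitors Spry4, Spry1 and Spry2 at -0.15, -0.11 and -0.05. Spred1, another inhibitor of the signal, was at 0.14.

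Partners of Gja1, Aqp4 and Gfap lay on both sides of 0. Of 14 genes of water channels, gap junctions and the endfoot anchor, 9 were measured, 6 below 0, with a median of -0.03, and 7 with a median of -0.055 without wild-type replicate 4. Dmd, the dystrophin gene whose short product anchors Aqp4 at endfeet, was at 0.22 (95% interval -0.01 to 0.46) and at 0.15 without wild-type replicate 4, and Panx2, a channel protein related to gap junction proteins, at -0.23 (95% interval -0.47 to 0.01). Of 12 glial filament and S100 genes, 8 were measured, 7 below 0, with a median of -0.09, and 6 below 0 with a median of -0.10 without that array. S100a4 was at -0.24 and S100a13 at -0.17. Regulators of glial differentiation had 18 of 28 measured and 9 below 0 (median -0.004), or 11 without that array (median -0.02), with the Notch effector Rbpj at 0.15 and the cytokine Ctf1 at -0.25. Bmp4, a ligand that promotes astrocyte fate, was at -0.22 (95% interval -0.89 to 0.46), and at -0.52 with an unadjusted p under 0.05 without wild-type replicate 4, which had its lowest value, 5.86.

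Lists chosen for Slc1a2, Slc1a3, Aldoc and Aldh1l1 were also described. Glutamate carriers and recycling genes had 5 of 11 measured and 4 below 0 (median -0.08), with Slc1a4 at -0.19 and Slc1a1 at -0.10. The median was -0.13 without wild-type replicate 4, again with 4 below 0, and Slc1a4, at -0.26, had an unadjusted p under 0.05. Glycolysis genes had 8 of 15 measured and 6 below 0 (median -0.09), or 7 without that array (median -0.08), with Eno2 at -0.16 and Pkm at 0.11. Folate enzymes had 5 of 11 measured and 3 below 0 (median -0.04), again 3 without it (median -0.02), with Mthfd2 at -0.12 and Tyms at 0.09. None of them passed the adjusted threshold.

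Markers of other cell types were examined because several share genes or neighbours with astrocytes. Radial glia, the parents of astrocytes, had 4 of 10 measured genes below 0 and a median of 0.01, or 6 of 10 and -0.03 without wild-type replicate 4, with Gli3 at 0.17 and Lrig1 at -0.15. Their summed linear level ranged from 6400 to 7260 in double knockout and from 5700 to 7060 in wild-type arrays. For the 5 astrocyte genes the sum ranged from 706 to 817 in double knockout and from 766 to 882 in wild-type arrays. Wild-type replicate 4 had the lowest mean log2 value of the wild-type arrays for both, 8.51 for radial glia and 7.03 for the 5 genes. All summed levels here and below include that array and were not taken without it. The lower ends of the wild-type ranges are the values of that array, except for choroid plexus and ependyma genes, where wild-type replicate 5 was lowest.

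Meningeal and fibroblast genes were of interest because meninges cover the forebrain. Of 6 measured, 4 were below 0, with a median of -0.10, and -0.13 without wild-type replicate 4, when 5 of 6 were below 0. Foxc1, a transcription factor of the meninges, was at 8.48, 8.53, 8.56, 8.58 and 8.33 in double knockout replicates 1 to 5, against 8.69, 8.73, 8.71, 8.74 and 8.72 in wild-type replicates 1 to 5. Its groups did not overlap, as for 0.687% of single-symbol probe sets on the lower side, and it was singled out among the 155 genes of all the lists. Its difference of -0.22 (95% interval -0.42 to -0.02), also -0.22 without wild-type replicate 4, did not pass limma's adjusted threshold. Col3a1, a fibrillar collagen, was at -0.12. The summed linear level of the 6 ranged from 1560 to 1750 in double knockout and from 1640 to 1900 in wild-type arrays. After group means were removed, the list's mean profile had r = 0.81 with that of the 5 astrocyte genes over 10 arrays, as a description, since both come from the same arrays. High values were not particular to it: radial glia had 0.75, regulators of glial differentiation 0.71, the wider astrocyte list 0.61, choroid plexus 0.56 and neurons 0.53. Other lists had less: oligodendrocyte lineage 0.23, microglia 0.01, fibroblast growth factor signalling -0.04, and glial filament and S100 genes -0.46. These r were not taken without wild-type replicate 4. That array had the lowest group-centred mean of the 5 genes, -0.95 in units of each gene's SD within groups. Gja1 and Gjb2 are also made by meningeal cells. The part of meningeal tissue in the astrocyte values was not tested.

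The remaining lists gave no gene past the adjusted threshold. Oligodendrocyte lineage genes had 3 of 5 measured below 0 (median -0.02), with Gpr17 at -0.25, Cspg4 at -0.18, Mog at 0.03 and Mbp at 0.05. Their median was -0.06 without wild-type replicate 4, and Gpr17, at -0.38, had an unadjusted p under 0.05. Their summed level ranged from 847 to 948 in double knockout and from 851 to 1030 in wild-type arrays. Neuron genes had 6 of 13 below 0 (median 0.03), and 9 of 13 without wild-type replicate 4 (median -0.04). Nefl, a neurofilament gene, was at -0.24 and Syp, of synaptic vesicles, at -0.15, while Tubb3, a neuronal tubulin, was at 0.28 and Slc17a6, a vesicular glutamate carrier, at 0.20. Neuron genes had a summed level of 16400 to 18900 in double knockout and 15400 to 18400 in wild-type arrays. Microglia and macrophage genes had 9 of 11 below 0 with and without that array (median -0.05 and -0.04), with C1qb at -0.14 and Tmem119 at -0.15, the last moving to -0.02 without wild-type replicate 4. Endothelial and pericyte genes had 4 of 8 below 0 (median -0.02), and 8 of 8 without that array (median -0.05). Cspg4 was at -0.18 and Esam at -0.08, and the highest over 10 arrays were Slco1c1 at 0.06 and Rgs5 at 0.05. Cspg4 is in this list and in the oligodendrocyte lineage list through the same probe set.

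Choroid plexus and ependyma genes had 5 of 7 measured below 0 with and without wild-type replicate 4 (median -0.10 and -0.11), with Sostdc1 at -0.20 and Kl at -0.11. Ttr, a thyroid hormone carrier made by the choroid plexus, ranged from 6.19 to 11.59 in double knockout and from 5.91 to 11.49 in wild-type arrays, with a difference of -0.31 (95% interval -3.39 to 2.77), and -0.80 without that array. It was at 6.19 and 6.58 in double knockout replicates 1 and 5 and at 7.53 and 5.91 in wild-type replicates 4 and 5. The other animals were at 10.4 to 11.59. Those with low Ttr bear the lowest animal numbers. They also had the lowest Gfap values of their groups, while Gja1 was lowest in these wild-type and highest in these double knockout animals. Whether these patterns go together was not tested. The summed level of the list ranged from 573 to 3800 in double knockout and from 509 to 3520 in wild-type arrays. The single red blood cell gene measured, Slc4a1, was at -0.12, and -0.06 without wild-type replicate 4. Of 155 genes measured in all the lists beside the 5 members, 2 had an unadjusted p under 0.05 in limma's fit, Gpr37l1 and Foxc1, both lower in the double knockout, against 2.76% of single-symbol probe sets, and 0 passed the adjusted threshold. The count at an unadjusted p was 6 of 155 without wild-type replicate 4, against 2.3%.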

How the data were processed

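Per the submitters' processing notes, the authors made the deposited log2 values with RMA, run in Affymetrix Expression Console, and named build mm8. RMA subtracts background, brings arrays to a common distribution and combines probes. Software versions and the level of summary were not given in the notes. Values were deposited to 2 decimals. Of 65529 probe sets, 15419 carried 1 symbol, 961 several and 49149 none. The RefSeq gene table of GRCm38.p6, used for names and chromosomes, held 15071 of the single-symbol probe sets. In identifier order, 32 to 40 of the 40 nearest named probe sets lay on the same chromosome as each of the 5 genes.

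The genotypes were compared in R 4.3.3 by limma 3.58.1 (lmFit, eBayes) over all probe sets, unfiltered, on genotype alone, two-sided, with Benjamini-Hochberg adjustment at 0.05. The number of arrays limits the precision. The eBayes step draws each SD toward a value common to the probe sets in the fit. The median residual SD was 0.333 for probe sets with no symbol and 0.164 for single-symbol ones. Intervals of genes with a small SD, Fgfr3 and Gja1 among them, are thus wider than their own spread alone would give. In the fit of single-symbol probe sets alone, only those set the common value. A gene in a list was represented by its brightest probe set with 1 symbol. Named genes were the members and, from each list, up to 3 past the threshold or otherwise the 2 with the smallest p, with the genes most and least like the members. Gjb6, Glul, Kcnj10, Hepacam, Fgfr4, Spry1, Spry2, Spry4, Spred1, Tubb3, Slc17a6, Ttr, Bmp4 and Cst3 were picked after their values were seen. So were Mbp, Mog, Rgs5 and Slco1c1. The members and lists were chosen with earlier results of these data known. Replicate numbers follow the order of deposit.

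The labels do not say which pups were littermates, and the samples were treated as unpaired. The script for the fit was tested on simulated data. There, 8% of 1.5-fold, 46% of 2-fold and 98% of 4-fold changes passed the adjusted threshold (50 probe sets each). Smaller changes were not simulated. A gene that did not pass is therefore not shown to be unchanged. Alternatives were quantile normalization, centring on the array median, only probe sets with 1 symbol, only brighter probe sets, trended and robust moderation, array weights, a covariate for Xist, pups of nearest animal number as a block, and each array left out.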

Additional observations from a re-analysis of the deposited data

Results flagged for a closer look

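Among 74 groups of 5 values, 3 held 1 value far from the other 4, by a gap to the nearest value of more than 0.71 of the group's range. Chance flags about 1 in 20 such groups. Gfap was at 7.16 in double knockout replicate 4, against 6.67 to 6.80 in the other double knockout animals. Mme was at 7.85 in wild-type replicate 3, against 7.31 to 7.46 in the other wild-type animals. Col3a1 was at 8.03 in wild-type replicate 5, against 7.91 to 7.94 in the other wild-type animals. Causes were not tested.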

How the results depend on the processing

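Over 18 alternatives, 10 of which left out 1 array, 0 of the 5 genes and 0 of the 155 genes of the other lists passed the adjusted threshold in any. The median difference of the 5 genes lay between -0.18 and -0.13, and 4 or 5 of the 5 were below 0. Agt, Fgfr3, Gja1 and Aqp4 were below 0 under every one of these alternatives, within -0.31 to -0.21, -0.24 to -0.16, -0.20 to -0.13 and -0.18 to -0.10. Gfap turned to 0.0215, 0.004 and 0.0015 without wild-type replicate 1, 2 or 3, and was otherwise below 0, down to -0.15. Animals of nearest number were tried as pairs, and their group-centred values correlated at -0.000595 to 0.156, not over 0.1 in every pair. For double knockout replicates 1, 4 and 5 this exceeded the highest value with another wild-type animal (0.156 against 0.00226, 0.124 against 0.0878, 0.0935 against 0.0241). For replicates 2 and 3 it did not (-0.000595 against 0.215, 0.098 against 0.103). With this replicate block the median was -0.16. Of the 5 genes 1, Agt, had an unadjusted p under 0.05, against 0 without it and 447 of 15419 single-symbol probe sets with it. The count was 2 of 5 with array weights and with quantile normalization (412 and 632 of 15419). It was 1 of 5 with trended and robust moderation (479 of 15419) and with only brighter probe sets (326 of 11216). With only single-symbol probe sets it was 3 of 5 (894 of 15419), and over the single omissions 0 or 1. Over all probe sets the block left 2 calls at the adjusted threshold, against 5. Within these pairs the double knockout animal was lower in 5 of 5 for Agt, Fgfr3 and Aqp4, in 4 for Gja1 and in 3 for Gfap. Any pairing gives 5 of 5 for Fgfr3, whose groups do not overlap. The share of all probe sets with such counts was not taken. The contrast was used to choose the genes, so nothing is read from the pair counts or from the counts at an unadjusted p. Of the 6 genes with the most similar profile, 1 was again among the first 6 without wild-type replicate 4. Each member has 1 single-symbol probe set, so the choice among probe sets of a gene changed nothing. Without detection calls, dim signal could not be told from background.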
